A study of Mus musculus with 18 samples.

Results

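The nuclear genes of mitochondrial complex I were examined in mouse retinal pigment epithelium (RPE), the pigmented layer that supports the photoreceptors. They were taken by symbol: a gene belonged to the set if its symbol starts with Nduf, does not contain -ps, and had a mean of at least 10 counts over the 18 libraries. This gave 46 of the 21859 genes of the count table, and all 46 had enough counts to be tested. Of 47 symbols that start with Nduf, Ndufb1-ps was left out by the rule. The libraries fall into 4 groups: Young (untreated young mice, 7 libraries), Old (untreated old mice, 4 libraries), Old control (old mice given AAV2-tTA, 3 libraries) and Old OSK (old mice given AAV2-tTA;TRE-OSK, 4 libraries). The control vector therefore shares the AAV2 capsid and the tetracycline transactivator tTA with the OSK treatment and lacks the cassette in which the TRE promoter drives Oct4, Sox2 and Klf4. Strain, ages, vector doses, times after treatment, the promoter of tTA and the number of animals behind a library are not given in the sources used here. The labels do not say that libraries came from separate animals, so the p-values below measure the spread between libraries, which may be technical.

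Complex I (NADH:ubiquinone oxidoreductase) passes electrons from NADH to ubiquinone and pumps protons across the inner mitochondrial membrane. Its peripheral arm holds the N module, which oxidises NADH, and the Q module, which reduces ubiquinone, while the membrane arm holds the proton pumps. The pumping subunits themselves are encoded by mitochondrial DNA, and the nuclear subunits are made in the cytosol, imported and joined with the help of assembly factors. RPE cells rely on mitochondrial respiration and leave much of the glucose that passes through them to the photoreceptors. By role, the 46 genes comprised 10 of the N module, 6 of the Q module, 9 of the proximal and 11 of the distal membrane arm, and 8 assembly factors. The remaining genes were Ndufa4, whose product is a subunit of cytochrome c oxidase despite its name, and its relative Ndufa4l2. Of the 36 structural subunits, 7 are core subunits, most of which carry flavin, iron-sulfur clusters or the ubiquinone site, such as Ndufs1, Ndufs7 and Ndufv1.

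In the GENCODE M21 annotation (GRCm38) the 46 genes lie on 17 chromosomes, 2 of them (Ndufa1 and Ndufb11) on X. RefSeq promoter windows (GRCm38.p6, from 250 bases before to 50 bases after a start) were matched for 40 of the 46 genes, with 42 windows in all. These windows were searched on both strands for the motifs of factors known to act on respiratory genes: GCGC, any base and then TGCGC for NRF1 (nuclear respiratory factor 1), AAGATGGCG for YY1 and ACTTCCGG for ETS factors such as GABP. The NRF1 motif was present in 10 of the 42 windows (23.8%) against 4.6% of all 32851 windows. The YY1 motif was present in 6 (14.3%) against 1.4%, and the ETS motif in 1 (2.38%, Ndufs3) against 3.89%. The stretches shown are those of genes whose levels are described below, with the motif in capitals. Each is written 5′ to 3′ on the strand of its gene. For Ndufa5 and Ndufs5 the motif lies on the opposite strand, so the capitals are its reverse complement.
Ndufa6, NRF1, chr15:82354249-82354278, minus strand: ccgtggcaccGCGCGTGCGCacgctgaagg
Ndufa5, NRF1, chr6:24527697-24527726, minus strand: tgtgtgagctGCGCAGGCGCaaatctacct
Ndufaf5, NRF1, chr2:140170652-140170681, plus strand: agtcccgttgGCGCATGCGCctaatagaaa
Ndufa11, NRF1, chr17:56717692-56717721, plus strand: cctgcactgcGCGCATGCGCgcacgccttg
Ndufs5, NRF1, chr4:123718265-123718294, minus strand: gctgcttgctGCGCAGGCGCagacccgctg
Ndufs7, YY1, chr10:80249463-80249492, plus strand: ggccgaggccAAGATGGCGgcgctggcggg
Ndufaf8, YY1, chr11:120098934-120098963, plus strand: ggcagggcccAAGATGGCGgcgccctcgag
Ndufs6, which encodes an N-module subunit, held an NRF1 and a YY1 motif that did not overlap. A match is a run of letters in the window and was not tested as a binding site.

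Levels are given as CPM, the read counts scaled to library size after TMM scaling, and differences as log2 fold changes of the edgeR fit. Library totals ranged from 18104828 to 32348136 counts, and the 46 genes together held 58935 to 118201 counts of a library. All 8 RPE markers examined were detected, with a summed level of 11270 to 42160 CPM over the 18 libraries. Rod markers (10 of 10 detected) summed to 450 to 3364 CPM in Young, 2380 to 8053 in Old, 1868 to 19880 in Old control and 3139 to 16760 in Old OSK. The highest rod levels were in Old control replicate 2 and Old OSK replicate 4. Immune markers (7 of 7 detected) summed to 59.1 to 85.5 CPM in Young and to 308 to 726 CPM in Old. Of the 10 marker lists examined, none had a gene at 0 in every library. In bulk RNA, fewer cells of a type and less RNA per cell cannot be told apart. The library names of 6 libraries carry a letter M that the labels do not explain (Young replicates 5 to 7, Old control replicates 2 and 3, Old OSK replicate 4). Those 6 had 4040 to 5493 counts on Y-linked genes, against at most 93 in each of the others.

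Levels per length were first compared within Young, as CPM per kilobase of 1 reference transcript per gene. Ndufa4 (348 CPM per kilobase) and Ndufb11 (337), a subunit of the distal arm, were the highest of the 46 genes, and Ndufb10, another distal-arm subunit, followed with 179. Core subunits lay between 142 (Ndufs7) and 46.3 (Ndufs1). The lowest structural subunit was Ndufc1, of the proximal arm, at 29.3 CPM per kilobase, above every assembly factor. The 8 assembly factors ranged from 20 (Ndufaf8) to 5.09 (Ndufaf6). Ndufa4l2 stood at 0.556 CPM per kilobase, and its counts ran from 2 to 37 in a library, so that its fold changes are poorly determined. Some features of counting bear on some of these levels. Pseudogenes at least 95% identical over 200 bases or more exist for 8 of the 46 genes, Ndufb11 and Ndufab1 among them, and could take or give reads. Exons of 16 genes overlap those of another gene, and without a stated strand setting such reads cannot be told apart, as for Ndufb11 and Rbm10 or Ndufs1 and Ino80dos.

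**Figure D1:**
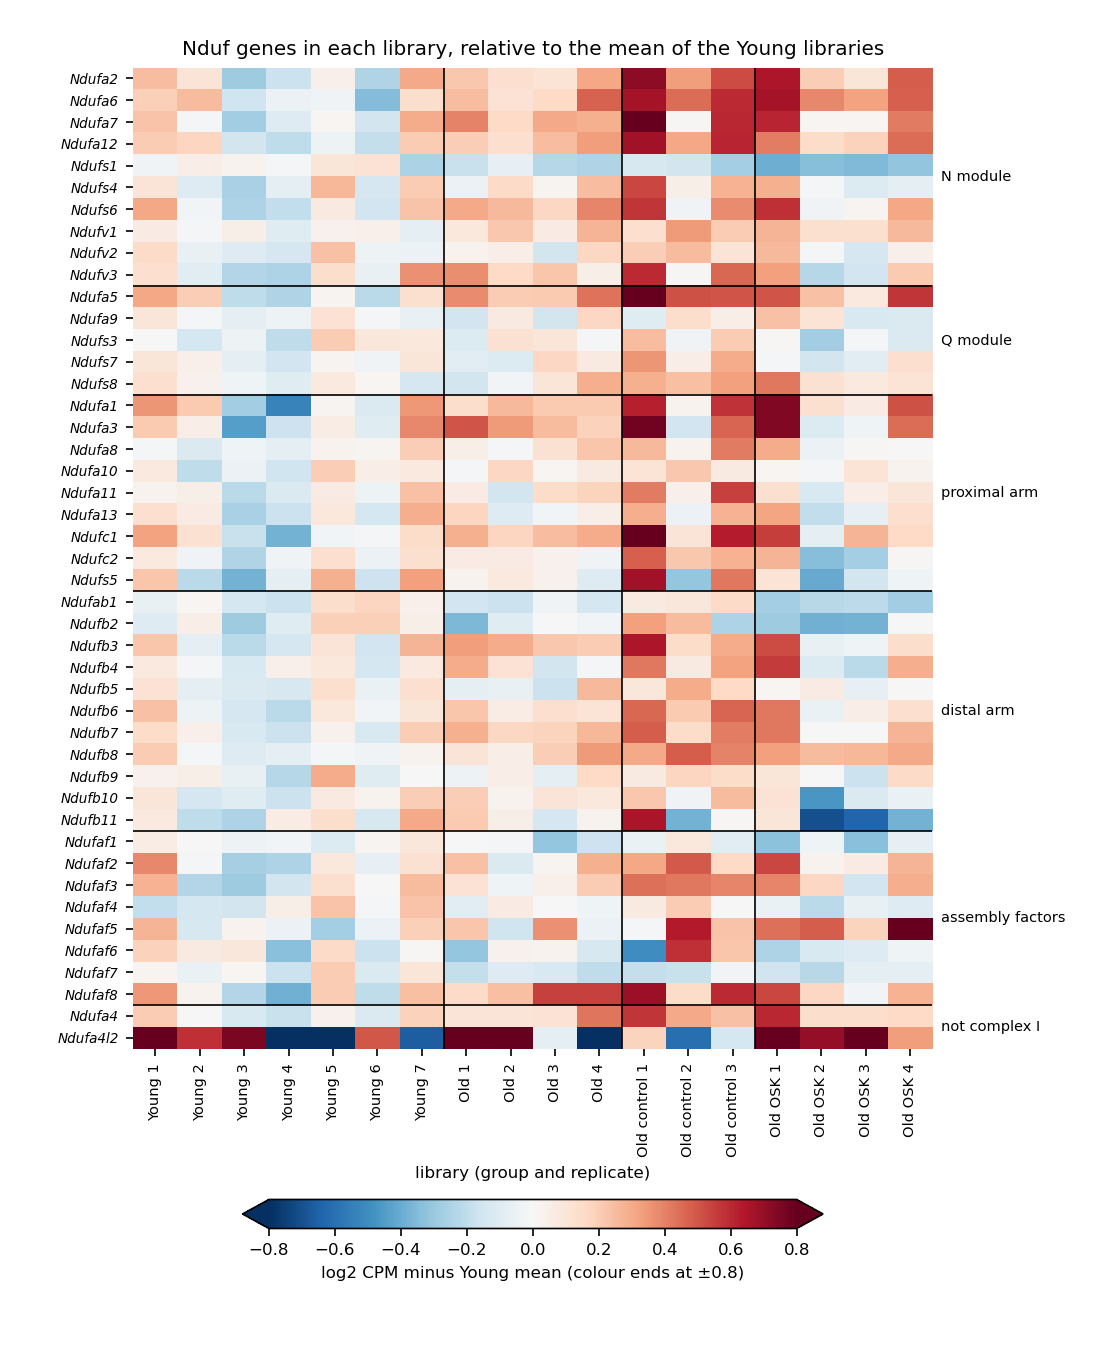
Level of 45 of the 46 Nduf genes (vertical axis, ordered by module) in each of the 18 libraries (horizontal axis), as log2 CPM minus the mean of the 7 Young libraries, in colour. Most genes are higher in Old control replicates 1 and 3 and in Old OSK replicate 1, whereas Ndufs1 is lower than the Young mean in all 11 libraries from old mice.

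The genes of the set varied together from library to library. The first principal component of the 45 genes other than Ndufa4l2 held 60.8% of their variance, and 41 of the 45 had a loading of the same sign. Ndufa3 (0.27), Ndufa1 (0.26) and Ndufa7 (0.25), small accessory subunits with short transcripts, had the largest loadings. The 10 largest belonged to transcripts of 419 to 1582 bases, and Ndufb2, at 455 bases, had a loading of 0.03. Ndufs1 had the most negative (-0.07). Old control replicate 1 scored 2.29, Old OSK replicate 1 1.68 and Old control replicate 3 1.5 on this component, and Young replicate 3 scored lowest at -1.92. On the second component the 7 Young libraries lay between -0.80 and -0.03 and the 4 Old OSK libraries between 0.38 and 1.06, with Old and Old control libraries between and within these ranges. Libraries of 1 group were thus far apart, as Old OSK replicates 2 and 3 show: the mean log2 CPM of the 46 genes was 5.53 and 5.54 there, against 5.85 in Old OSK replicate 1. The group means of this quantity were 5.57 ± 0.127 in Young (SD, n = 7), 5.67 ± 0.0222 in Old (SD, n = 4), 5.82 ± 0.108 in Old control (SD, n = 3) and 5.66 ± 0.150 in Old OSK (SD, n = 4). The mean of Old control was the highest and that of Young the lowest, and the means of Old and Old OSK differed by less than their spread. Gene by gene, Old control had the highest group mean for 41 of the 46 genes, and Young had the lowest for 30.

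The first comparison, Old against Young, asks how transcript levels differ with age in untreated RPE. None of the 46 genes passed an adjusted p of 0.05 (edgeR quasi-likelihood test with Benjamini-Hochberg adjustment over 15944 genes), while 9.56% of all tested genes did. Log2 fold changes were small: 36 of the 46 were above 0 (17 of 46 with the length offset described below), against 49.3% of all tested genes, with a median of 0.08 against -0.004. At an unadjusted p under 0.05, 7 genes were higher and 1 was lower, where the shares over all genes were 15.6% and 13.4%. For 42 of the 45 genes other than Ndufa4l2, the 95% interval of the difference lay within a fold of 1.5 in either direction. Immune markers (7 of 7 above 0, 6 called, median 2.26) and rod markers (10 of 10 above 0, 0 called, median 1.40) moved with this comparison, and the part of the immune markers in the Nduf differences was not tested. With the rod score as a covariate the median of the 46 genes was 0.12 and 0 were called, where 3.04% of all tested genes were. Young replicates 5 to 7 carry the letter M in their names, and none of the Old libraries does. With M as a covariate the median was 0.113 and 0 were called, where 3.76% of all tested genes were. Among libraries without M the median was 0.132.

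Ndufs1 encodes the largest iron-sulfur subunit of the N module (chromosome 1, 63143596 to 63176833, minus strand). Its Young libraries ranged from 100.3 to 129.5 CPM with a median of 122, and the Old libraries stood at 106, 114, 102 and 101 CPM. The 4 Old libraries all lay below 6 of the 7 Young libraries, and the groups overlapped only through Young replicate 7 at 100.3 CPM. On the log2 scale the difference was -0.18 (SE 0.069, edgeR adjusted p = 0.0987). Ndufv1 encodes the flavin-binding subunit that accepts electrons from NADH (chromosome 19, 4007384 to 4012806, minus strand). It ranged from 119.6 to 133.6 CPM in Young, with a median of 131, and stood at 136, 148, 134 and 155 CPM in Old. All 4 Old libraries were above all 7 Young libraries, as for no other of the 46 genes, where 3.69% of all tested genes separated in this direction. None separated with Old lower, as 5.61% of all tested genes did. Its log2 fold change was 0.16 (SE 0.065, edgeR adjusted p = 0.112), and DESeq2 placed it just past the threshold (0.17, adjusted p = 0.0498). DESeq2 called 15.4% of all tested genes in this comparison.

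Ndufb8, a distal-arm subunit whose protein is widely used as a marker of assembled complex I, ranged from 49.3 to 61 CPM in Young, with a median of 52.3. It stood at 56.8, 54.9, 60.5 and 66.9 CPM in Old (log2 fold change 0.17, edgeR adjusted p = 0.107). The overlap came from Young replicate 1, at 61 CPM, since the other Young libraries were at 54 CPM or below. Ndufa5 of the Q module (log2 fold change 0.30), the assembly factor Ndufaf8 (0.36) and Ndufb7 of the distal arm (0.22) had the next lowest p among the genes higher in Old, with adjusted p of 0.118, 0.134 and 0.144. Below 0, after Ndufs1, came Ndufaf7 (-0.16), a methyltransferase, then Ndufab1 (-0.13), the mitochondrial acyl carrier protein, Ndufaf1 (-0.12) and Ndufb2 (-0.12), with adjusted p of 0.174 to 0.556. The other core subunits described differed little, from 0.01 for Ndufs7 to 0.06 for Ndufs8, and Ndufa4 had a log2 fold change of 0.19 (adjusted p = 0.283). By module, the median was 0.19 in the N module, 0.02 in the Q module, 0.06 in the proximal arm, 0.07 in the distal arm and 0.02 for the assembly factors.

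**Figure D2:**
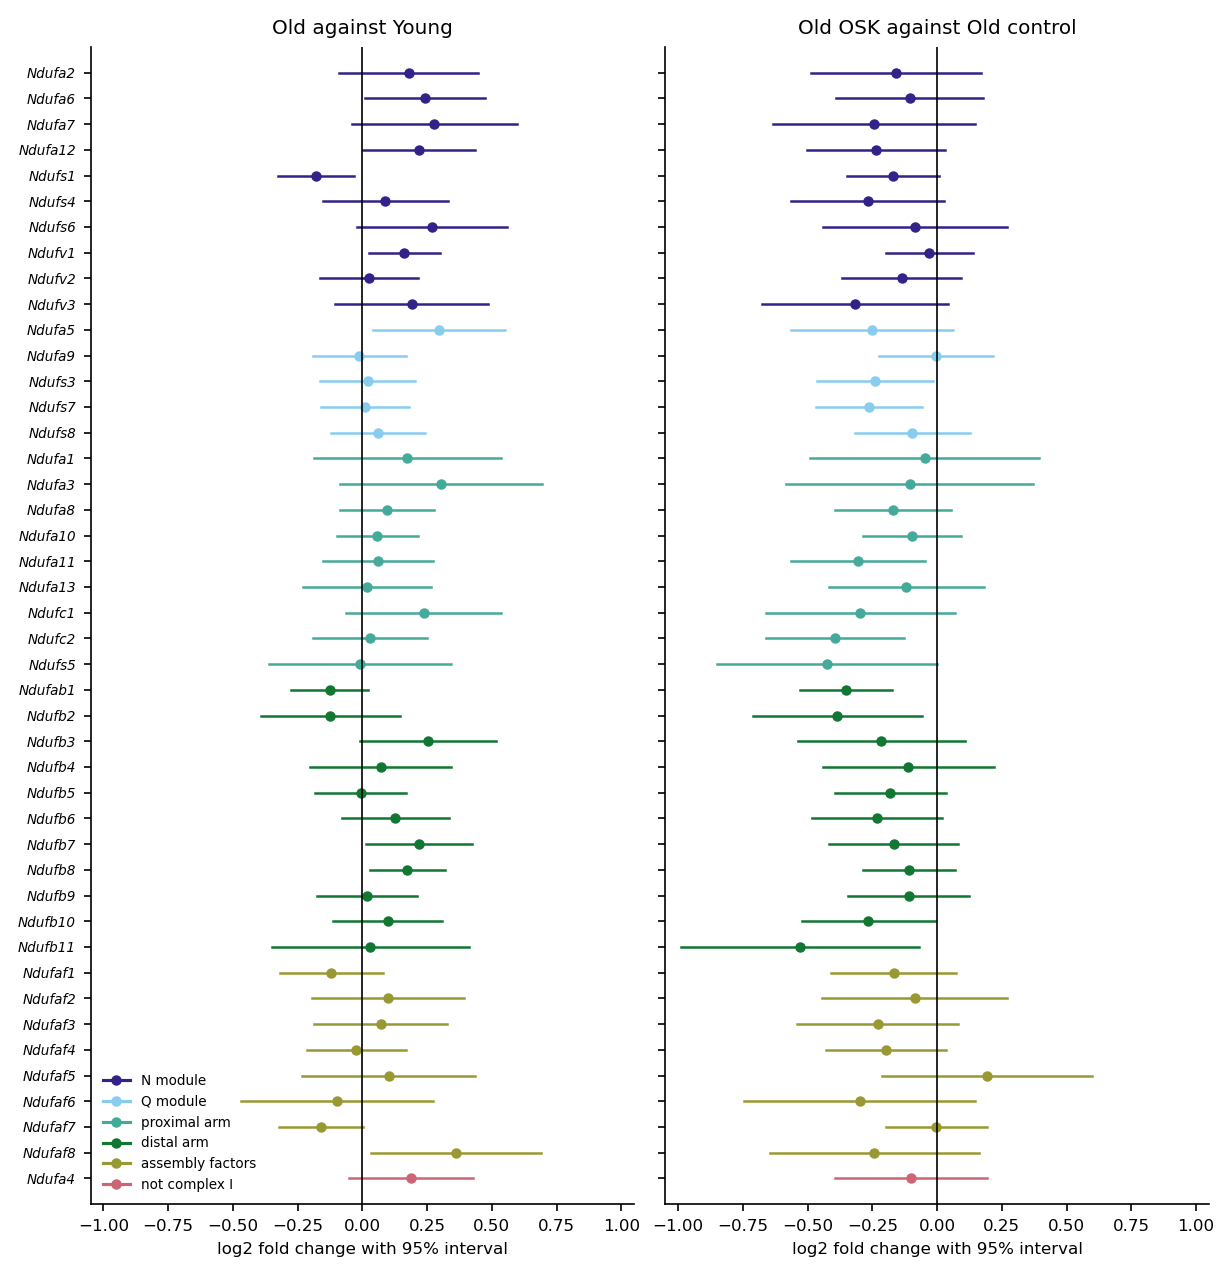
Log2 fold change (points) with its 95% interval (lines) for 44 of the 46 Nduf genes, with Ndufa4l2 among those not shown, in Old against Young (left) and Old OSK against Old control (right), coloured by module. Points lie on both sides of 0 on the left and almost all lie below 0 on the right, and no gene passes the threshold over all tested genes in either panel.

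Transcript length moved with these values. Across the 46 genes, log2 fold change and transcript length had a Spearman rho of -0.41 in Old against Young, as against -0.16 across 15755 genes of known length. These are descriptions across genes that share the same libraries. Of the 46 transcripts, 26 are at most 1000 bases long, and their median log2 fold change was 0.15, while that of all 1093 tested genes of such length was 0.17. In the 17 genes over 1000 and up to 2000 bases the median was 0.03, against 0.05 for all genes of that length. The shift of short transcripts ran from -0.274 to -0.032 in the Young libraries and from -0.071 to 0.151 in the Old libraries, as the median deviation in log2 CPM from the mean of all libraries. With the length trend of each library taken out as an offset, the median of the 46 genes was -0.04 (17 of 46 above 0). None was called, where 6.94% of all tested genes were. That setting was chosen after the data were seen.

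Old OSK against Old control asks what differs after the OSK factors beyond the vector. All 36 structural subunits of the set had a log2 fold change below 0, as did 44 of the 46 genes, where 47.1% of all tested genes were above 0. Over all settings and left-out libraries, 1 to 6 of the genes were above 0. The genes vary together from library to library, as described above, and the refits share libraries. In each comparison such counts of signs are therefore not counts of independent observations. Ndufb1-ps, left out by the rule, had a mean of 18.07 CPM in Old control (SD 3.91) and 19.65 CPM in Old OSK (SD 5.919). The differences were modest, with a median of -0.17 for the 46 genes against -0.03 for all. None of the 46 passed the adjusted threshold (edgeR quasi-likelihood test, Benjamini-Hochberg), and few genes did at all, 0.728% of those tested. At an unadjusted p under 0.05, 0 were higher and 8 were lower, all 8 structural subunits, while 13.3% and 13% of all genes were. The median was -0.17 in the N module, -0.18 in the Q module, -0.17 in the proximal arm, -0.22 in the distal arm and -0.18 for the assembly factors, so that it varied little with the module. The summed level of RPE markers was 14100 to 41290 CPM in Old control and 11270 to 20930 CPM in Old OSK, and 7 of those 8 genes had a log2 fold change below 0 (median -0.83). The part of the markers in the difference was not tested.

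Ndufab1 had the lowest p. It encodes the acyl carrier protein that serves both mitochondrial fatty acid synthesis and complex I (chromosome 7, 122085403 to 122101886, minus strand). Old control libraries stood at 47.7, 48.3 and 50.4 CPM, and Old OSK libraries at 37.6, 38.7, 39.2 and 37.3 CPM. The groups lay far apart relative to the spread within each, and the log2 fold change was -0.35 (SE 0.084, edgeR adjusted p = 0.0588). Over the 12 alternatives the adjusted p ran from 0.00699 to 0.189. It was under the threshold in 2 of them, with DESeq2 (0.00699) and with a filter at a mean of 50 counts (0.0382), and it was 0.14 with the replicate block. Leaving out each library in turn gave values from 0.0135 to 0.225 in the 7 fits, under the threshold without Old control replicate 2 (0.0135) and without Old OSK replicate 4 (0.0238). Ndufs1 also separated, with 109.5, 108 and 98.8 CPM in Old control and 91.1, 94.2, 93.4 and 96.2 CPM in Old OSK (log2 fold change -0.17, adjusted p = 0.209). In all, 4 of the 46 genes separated with Old OSK lower (Ndufab1, Ndufs1, Ndufaf4 and Ndufb5), against 5.84% of all tested genes, and 1 with Old OSK higher (Ndufa4l2), against 6.55%.

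Ndufc2, a proximal-arm subunit, stood at 109.8, 91.5 and 95.6 CPM in Old control and at 95, 62.1, 65.1 and 79.3 CPM in Old OSK. Only Old OSK replicate 1 reached the range of the control libraries, and the log2 fold change was -0.39 (SE 0.126, edgeR adjusted p = 0.0905). Ndufs7, the core subunit that holds the last iron-sulfur cluster before ubiquinone, stood at 137, 111 and 132 CPM in Old control and at 107, 97.1, 101 and 118 CPM in Old OSK (-0.26, adjusted p = 0.116). Its groups overlapped through Old control replicate 2 and Old OSK replicate 4. Ndufb2 of the distal arm (-0.39) and Ndufa11 of the proximal arm (-0.31) had adjusted p of 0.135 and 0.136. The largest difference among the structural subunits was that of Ndufb11, named here after its values were seen: 479, 234 and 306 CPM in Old control and 325, 186, 196 and 233 CPM in Old OSK (-0.53, SE 0.218, adjusted p = 0.143). Old control replicate 1 alone stood above all 4 Old OSK libraries for this gene.

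Other core subunits described had log2 fold changes from -0.24 (Ndufs3, adjusted p = 0.164) to -0.03 (Ndufv1, adjusted p = 0.86), and Ndufa4 had -0.10 (adjusted p = 0.709). The 2 genes above 0 were Ndufaf5, an arginine hydroxylase that acts on Ndufs7 (0.19, 95% interval to 0.60, adjusted p = 0.579), and Ndufa4l2. Ndufa4l2 stood at 0.467, 0.237 and 0.357 CPM in Old control and at 0.920, 0.707, 0.824 and 0.527 CPM in Old OSK. These are 7 to 11 counts against 16 to 19 counts in a library, and the log2 fold change of 1.07 had an SE of 0.79 (adjusted p = 0.425).

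**Figure D3:**
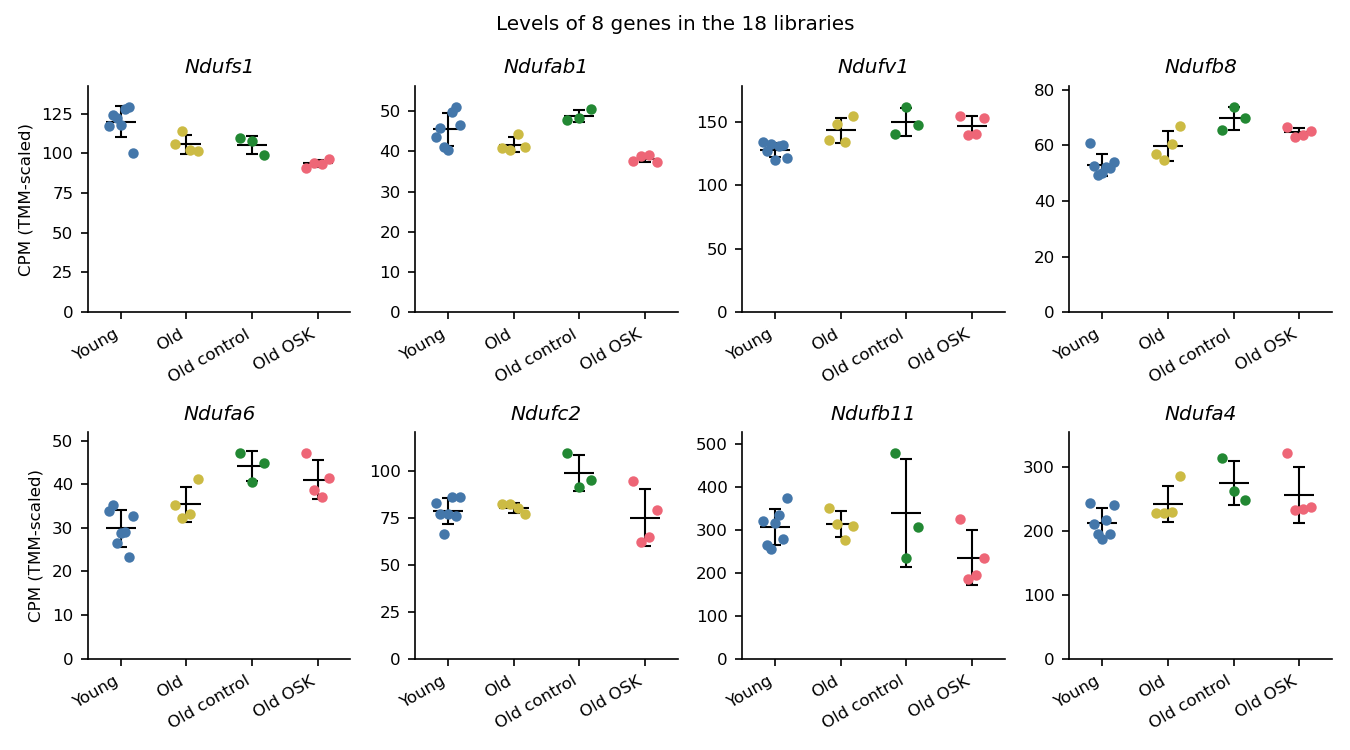
CPM of 8 Nduf genes in each library (points), with the mean (wide tick) and SD (bars) of each group, on axes that start at 0. Ndufab1 and Ndufs1 are lower in all 4 Old OSK libraries than in all 3 Old control libraries, while the points of Ndufb11 spread from 234 to 479 CPM within Old control.

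The number of called genes in this comparison depended on single libraries. Without Old control replicate 2, the library with the highest rod level, 7 genes were lower in Old OSK (Ndufa11, Ndufs3, Ndufs7, Ndufs5, Ndufc2, Ndufab1 and Ndufb11), but 17.9% of all tested genes were called then. Without Old OSK replicate 4, the other library of high rod level, 3 were lower (Ndufb2, Ndufs7 and Ndufab1; 11% of all genes). Among libraries without M, which leave only Old control replicate 1 in its group, 3 were lower (Ndufb2, Ndufs5 and Ndufb11; 8.2% of all genes), the median of the 46 genes was -0.30, and 6 were above 0. The spread in that fit comes from the other groups, and the lone control library is assumed to vary as they do. The libraries with M hold 1 Old OSK library and gave no separate fit. With M as a covariate the median was -0.15 and 0 were called, where 0.364% of all tested genes were. With the rod score as a covariate it was -0.17 and 0 were called, where 0.872% were. Over the 7 fits that each left out 1 library the median lay between -0.29 (without Old OSK replicate 1) and -0.14 (without Old control replicate 1). Transcript length did not order the differences in the same way as with age. The median was -0.17 for genes of up to 1000 bases and -0.18 for those over 1000 and up to 2000 bases, against 0.01 and -0.002 for all genes of those lengths. With the length trend as an offset the median was -0.23.

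Old control against Old asks whether levels differ after the vector without OSK. Of the 46 genes, 44 had a log2 fold change above 0, with a median of 0.19, against 57.4% of all tested genes and a median of 0.04. All 10 rod markers (median 0.94) and all 4 muscle markers (median 1.01) were above 0 as well, with 0 called. With the rod score as a covariate the median of the 46 genes was 0.18, and the part of the muscle markers was not tested. None of the Old libraries carries M, while Old control replicates 2 and 3 do. With M as a covariate the median of the 46 genes was 0.13, with 42 above 0. With the length offset it was 0.129, with 39 above 0. Among libraries without M, which leave 1 control library, it was 0.278, with 40 above 0. None of the 46 genes was called, and 0% of all tested genes were, with a lowest adjusted p of 0.9 (edgeR quasi-likelihood test, Benjamini-Hochberg). DESeq2 called 0 of the 46 as well, and 0% of all tested genes. At an unadjusted p under 0.05, 10 of the 46 were higher, against 2.4% of all genes, and 0 were lower, against 1.34%. In 6 genes, Ndufab1 among them, the 3 Old control libraries lay above all 4 Old libraries, against 2.25% of all tested genes, and 0 separated downward, against 0.928%. Ndufab1 stood at 40.7, 40.2, 44.4 and 41.1 CPM in Old, below the 47.7 to 50.4 CPM of Old control, with a log2 fold change of 0.23 (SE 0.084). Ndufb8 stood at 65.4, 74 and 69.7 CPM in Old control, where Old replicate 4 (66.9 CPM) overlapped with the lowest (0.22, SE 0.084). On the other side of 0 were Ndufs1 (-0.005) and Ndufa4l2 (-1.15, at a few counts a library). Among the core subunits described the log2 fold change ranged up to 0.23 (Ndufs7). The median of the 46 genes lay between 0.13 (without Old control replicate 1) and 0.24 (without Old control replicate 2) when single libraries were left out. The 3 Old control libraries enter both this comparison and that with Old OSK, so their opposite signs are not independent of each other.

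Old OSK against Young shows where the levels stood after OSK relative to young RPE, and shares libraries with both of the first comparisons. Here 9 of the 46 genes were called, 7 higher and 2 lower (edgeR quasi-likelihood test, Benjamini-Hochberg), a share below the 46.4% of all tested genes (25.1% higher, 21.4% lower). The median log2 fold change was 0.06, as it was for all genes. The genes that rose, none of which was called higher with the length trend taken out (below), were Ndufa2, Ndufa6, Ndufa12 and Ndufv1 of the N module, Ndufa5 of the Q module, Ndufb8 of the distal arm and the assembly factor Ndufaf5. Those that fell were Ndufs1 and Ndufab1.

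Ndufs1 had the lowest p of the set. All 4 Old OSK libraries (91.1 to 96.2 CPM) lay below all 7 Young libraries (100.3 to 129.5 CPM), a difference of -0.355 on the log2 scale (SE 0.07, edgeR adjusted p = 0.000986). It was called in all 12 alternatives and in all 11 fits without a library, at an adjusted p of at most 0.0159. Ndufab1 lay between 37.3 and 39.2 CPM in Old OSK and between 40.2 and 51.1 CPM in Young, again without overlap (-0.25, adjusted p = 0.00828). Against this, Ndufa6, an LYR-motif subunit to which the acyl carrier protein binds, stood at 47.2, 38.7, 37.1 and 41.3 CPM in Old OSK and at 23.3 to 35.3 CPM in Young, with a median of 29.1. It rose by 0.46 on the log2 scale (SE 0.109, adjusted p = 0.0034). Ndufb8 lay between 63.1 and 66.6 CPM in Old OSK, above its 49.3 to 61 CPM in Young (0.29, adjusted p = 0.00334), and Ndufv1 between 139.7 and 154 CPM, above its 119.6 to 133.6 CPM (0.20, adjusted p = 0.02). In all, 3 genes separated upward, against 12.6% of all tested genes, and 2 downward, against 15.6%. Ndufaf5 (0.49), Ndufa5 (0.35), Ndufa12 (0.29) and Ndufa2 (0.36) rose with overlapping groups (adjusted p = 0.0166 to 0.0291). Of the core subunits described and not called, Ndufs8 had the largest difference (0.19, adjusted p = 0.0841), and Ndufs3, Ndufs7 and Ndufv2 lay between -0.10 and 0.04.

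**Figure D4:**
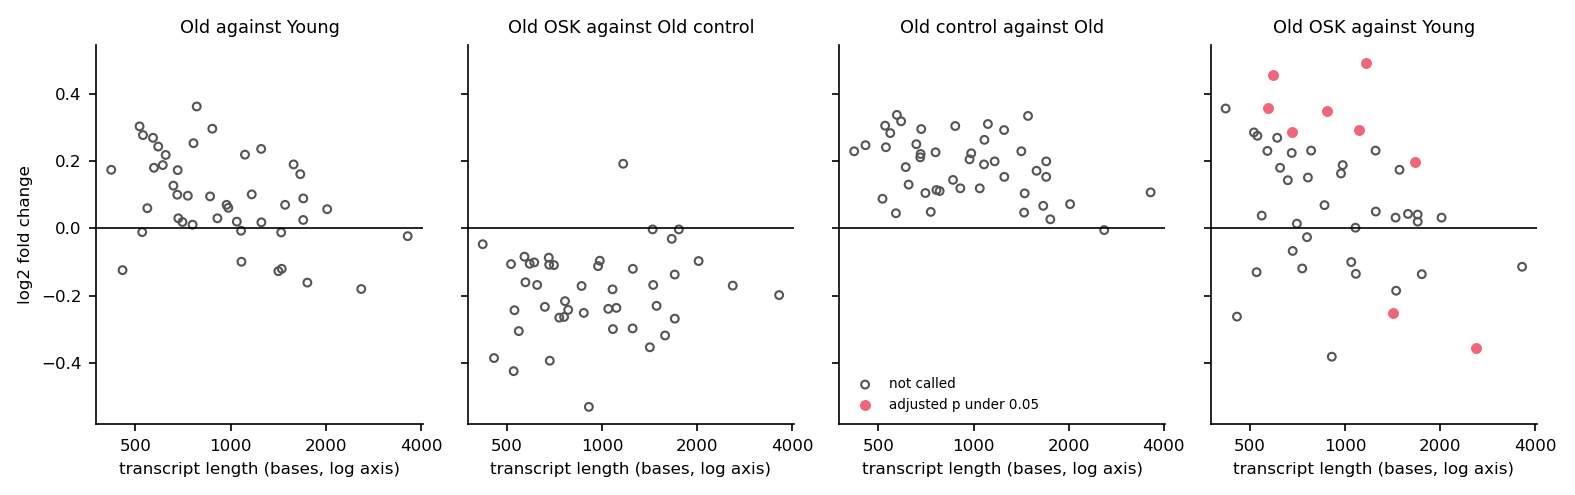
Log2 fold change (vertical axis) against length of the reference transcript in bases (horizontal log axis) for 44 of the 46 Nduf genes in the 4 comparisons, with called genes filled. In Old OSK against Young, the 7 genes called higher, of which 0 are with a length offset, are at most 1661 bases long, and Ndufs1, at 2590 bases, is the lower of the genes that fell.

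The directions in this comparison moved with the treatment of transcript length. All tested genes of up to 1000 bases had a median log2 fold change of 0.33, those over 1000 and up to 2000 bases 0.16 and longer ones 0.003. The 26 Nduf genes of up to 1000 bases had a median of 0.18, below that of all genes of their length, and the 17 over 1000 and up to 2000 bases had 0.03. With the length trend taken out as an offset, 0 genes were higher and 15 were lower in Old OSK than in Young (45.9% of all tested genes called), and the median was -0.11 with 8 of 46 above 0. Ndufs1 and Ndufab1 were lower under both settings. Ndufa6 was then at 0.10 (adjusted p = 0.37), Ndufv1 at 0.08 (adjusted p = 0.315) and Ndufb8 at -0.04 (adjusted p = 0.621). With the rod score as a covariate 4 genes were called (Ndufa6 and Ndufb8 higher, Ndufs1 and Ndufaf1 lower), where 27.9% of all tested genes were. Among libraries without M there were 3 (Ndufa6 and Ndufb8 higher, Ndufs1 lower), where 36% of all tested genes were called. Calls ranged from 5, without Young replicate 5 (42.9% of all tested genes) or without Old OSK replicate 4 (43.6%), to 10, without Young replicate 1 (44.3%). The rod markers, of which 9 of 10 were called higher in Old OSK than in Young, and the immune markers, of which 7 of 7 were, moved with the comparison. Of the 8 RPE markers, 7 were called lower (median -1.20). The part of these markers in the Nduf differences beyond the covariate fit was not tested.

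Differences were then set beside the promoter motifs. The 9 genes with the NRF1 motif had a median log2 fold change of 0.10 in Old against Young and of -0.17 in Old OSK against Old control, and the 31 with a window but no such motif had 0.09 and -0.22. After OSK, relative to Young, 3 of the 9 were called higher (Ndufa5, Ndufa6 and Ndufaf5, whose sequences are printed above) and 0 lower, as against 3 higher and 1 lower of the 31, where 25.1% of all tested genes were called higher and 21.4% lower. With the length offset none of the 46 genes was called higher. These counts are descriptions without a test.

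Genes that work with the nuclear subunits were taken from fixed lists, and their values are given under the main setting only. In Old OSK against Young, 7 of the 8 RPE markers were called lower (median -1.20). The part of the RPE, rod and immune markers and of transcript length in the differences of these lists was not tested. Of all tested genes, 9.56% were called with age and 0.728% between Old OSK and Old control. In Old OSK against Young, 25.1% were called higher and 21.4% lower. The 7 subunits encoded by mitochondrial DNA include the proton pumps of the membrane arm. With age 6 of 7 were below 0, with a median of -0.28, and 0 passed. Between Old OSK and Old control 7 of 7 were below 0, with a median of -0.23, and 0 passed. Relative to Young, 4 fell in Old OSK (mt-Nd2, mt-Nd4, mt-Nd5 and mt-Nd6), with a median of -0.45. mt-Nd5, the distal proton pump, was at 9473 CPM in Young and 5669 CPM in Old OSK, which is a difference of -0.74 on the log2 scale (SE 0.143, edgeR adjusted p = 0.000863). Of the 36 structural subunits of the Nduf set, 27 were above 0 in that comparison without the length offset. Of the 12 tested assembly factors that are not named Nduf, 0 passed in the first comparisons and 3 fell in Old OSK against Young. Aifm1, which takes part in the import of small respiratory subunits, was among the latter (-0.61, adjusted p = 0.000221). It had -0.29 in Old against Young (adjusted p = 0.0619) and -0.38 in Old OSK against Old control (adjusted p = 0.0847).

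Of the 9 genes of complex II and the other enzymes that feed electrons to ubiquinone, 0 passed in either of the first comparisons. In Old OSK against Young 4 fell (median -0.24), where 21.4% of all tested genes were called lower. Among 12 transcription factors and coactivators of respiratory genes, 0 passed with age or between Old OSK and Old control. Ppargc1a, the coactivator PGC-1α, was at 74.7 CPM in Young, 59 in Old, 60.3 in Old control and 40.6 in Old OSK. Its log2 fold change was -0.34 in Old against Young (edgeR adjusted p = 0.0627) and -0.57 in Old OSK against Old control (SE 0.136, adjusted p = 0.0588). Its groups did not overlap in either comparison, where 5.61% and 5.84% of all tested genes separated in the same direction. Between Old OSK and Old control the gap was narrow, with a highest Old OSK library at 43.92 CPM and a lowest Old control library at 44.14 CPM. Gabpa, the DNA-binding subunit of GABP, had -0.23 (adjusted p = 0.0548) and -0.18 (adjusted p = 0.199). Both fell in Old OSK against Young, Ppargc1a by 0.88 and Gabpa by 0.39 on the log2 scale (adjusted p = 5.9e-05 and 0.000667). In that comparison 3 of the 12 were called lower and 1 higher, where 21.4% and 25.1% of all tested genes were. Of the 12, 5 were above 0, and the median was -0.05. Tfam, which packages mitochondrial DNA and acts in its transcription, was the other that fell (-0.27, adjusted p = 0.0192). Gabpb1, the partner of Gabpa, rose from 10.75 to 13.92 CPM (0.37, adjusted p = 0.0379).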

How the data were processed

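RNA from RPE (18 libraries) was extracted with TRIzol and polyA RNA was made into full-length cDNA with a SMART-Seq v4 kit, then cut by transposase and amplified (Nextera XT), per the labels' protocols. A single table of raw counts by gene symbol was deposited by the authors. STAR 2.7.1a and featureCounts 1.6.2 are named in the submitters' processing notes, which also list human and mouse builds. The annotation, the strand setting and the handling of multiply mapped reads are not given in the sources used here. Reads carry no molecular identifiers, so counting error is a lower limit.

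The filter filterByExpr (edgeR 4.0.16) kept 15944 genes at a minimum total of 15 and a minimum count of 10. Counts were scaled by TMM and fitted for all 18 libraries with 4 group means (glmQLFit and glmQLFTest, R 4.3.3). P-values were adjusted by Benjamini-Hochberg, and a gene is called at an adjusted p under 0.05. The 46 genes and the lists were chosen with earlier results of these data known, so no set test was made. Named genes were the 5 with the lowest p in each direction in the first pair of comparisons and the 2 in each direction in the others, the core subunits, Ndufa4 and Ndufa4l2, any called gene, and of the other lists the 2 with the lowest p. Not every gene that meets this rule is reported here. Genes named outside this rule were chosen after their values were seen.

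Lengths are those of 1 GENCODE M21 transcript per gene (APPRIS rank, support level, then shortest). Intervals are at 0.95 confidence. Alternatives were median-ratio size factors, robust empirical Bayes, no filter on low counts or one at a mean of 50, M or a rod score as a covariate, libraries without M only, DESeq2 1.42.0, only the groups compared, a replicate block with its matched unblocked fit, each library left out, and a length offset (loess, span 0.5, chosen after the data were seen). Replicates differed beyond sampling noise (chi-square per gene at least 20.2), so all were kept apart. Deviations from the group means were correlated across genes between Old OSK and Old control libraries of equal number. For the numbers 1, 2 and 3, r was 0.103, 0.421 and 0.339. For number 1, another Old control library matched better. Similar values occurred elsewhere, 0.359 for number 3 in Old control against Old and 0.352 for number 4 in Old OSK against Young. The data therefore do not establish a pairing, and the replicate block is an alternative only.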

Additional observations from a re-analysis of the deposited data

Results flagged for a closer look

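Of 66 groups of values tested for a far sample, over 22 named genes and the groups of 4 to 10 libraries, 5 had a library far from the others; chance gives about 1 in 20 groups. Ndufa4, the cytochrome c oxidase subunit, was at 285 CPM in Old replicate 4, where the other Old libraries were at 226.8 to 229.5 CPM. It was at 321 CPM in Old OSK replicate 1, where the other Old OSK libraries were at 233 to 237 CPM. Ndufs8, a core subunit of the Q module, was at 107 CPM in that same Old OSK library, and the others lay between 83.8 and 86.5 CPM. Ndufb8 was at 61 CPM in Young replicate 1, above the 49.3 to 54 CPM of the other Young libraries. Ndufs1 was at 100.3 CPM in Young replicate 7, below the 117.3 to 129.5 CPM of the others, and without that library its log2 fold change in Old against Young was -0.22 (edgeR adjusted p = 0.0516).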

How the results depend on the processing

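No member of the set was called in Old control against Old under any setting run. In Old against Young, 1 was called with DESeq2 (Ndufv1), where 15.4% of all tested genes were. With the length offset the median there moved to -0.04. Between Old OSK and Old control, DESeq2 and the filter at a mean of 50 counts each called 1 (Ndufab1). Over all genes, DESeq2 called 1640 (11.6%) and the filter at a mean of 50 counts called 163 of 13052 (1.25%). Libraries without M, with 1 control library whose spread is taken from the other groups, gave 3 (8.2% of all) with a median of -0.297. Leaving out 1 library gave 0 to 7 calls there and a median of -0.289 to -0.14. In Old OSK against Young, the 9 calls became 4 with the rod score (27.9% of all tested genes called), 3 without M libraries (36%) and 15, all lower, with the length offset (45.9%), where the median was -0.112. Leaving out 1 library gave 5 to 10 calls and a median of -0.019 to 0.132.

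With the replicate block, 2 genes were called in Old OSK against Young (Ndufa6 and Ndufs1), where 38.3% of all tested genes were. The same libraries without the block also gave 2, where 37.5% were. In the other comparisons the block called 0 of the set. Over all tested genes it called 0% in Old against Young, 0% in Old control against Old and 3.02% in Old OSK against Old control. In Old OSK against Old control, the replicate block gave a median of -0.203 and an edgeR adjusted p of 0.14 for Ndufab1. In this and the other comparisons, no label says what a shared replicate number marks.

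With the length offset, Old against Young gave -0.01 for Ndufb8, -0.093 for Ndufs3, -0.152 for Ndufs7, -0.07 for Ndufs8, -0.023 for Ndufv2 and -0.012 for Ndufa4. Old OSK against Young gave -0.038 for Ndufb8, -0.008 for Ndufa2, -0.055 for Ndufs8, -0.07 for Ndufv2 and -0.088 for Ndufa4. The rod score gave 0.04 for Ndufs3 and 0.017 for Ndufs7 there, and libraries without M gave 0.005 for Ndufs3. Ndufs1 in Old control against Old was 0.004 with M and with the rod score as covariates and 0.051 without M libraries, where Ndufv1 was -0.027. Against Old control, Ndufv1 in Old OSK was 0.041 without M libraries. Leaving out 1 library in Old against Young gave -0.012 to 0.063 for Ndufs3, -0.042 to 0.05 for Ndufs7, -0.024 to 0.126 for Ndufs8, -0.024 to 0.079 for Ndufv2 and -0.292 to 0.916 for Ndufa4l2. For Old OSK and Old control it gave -0.089 to 0 for Ndufv1 and -0.262 to 0.007 for Ndufa4, in Old control against Old -0.033 to 0.04 for Ndufs1, and in Old OSK against Young -0.112 to 0.017 for Ndufs7 and -0.067 to 0.082 for Ndufv2. The cause of these changes was not tested.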
